A study of Mus musculus with 48 samples.

Results

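The axon guidance ligands and receptors of the mouse striatum were followed across 6 genotype groups. They were taken from the count table by symbol: semaphorins (Sema3 to Sema7), plexins, neuropilins, ephrins, Eph receptors, Slits, Robos, netrins, Unc5 receptors and Dcc, with at least 10 counts in at least 7 libraries. Of the 48795 rows of the table, 70 carried such a symbol and 69 reached the minimum. Ntn5 did not reach it, with a highest count of 42 and 1 library at the minimum. Efna4, with 0 to 14 counts a library, was kept by the rule but had too few reads to be tested, so 68 members were tested. The 69 members comprised 20 semaphorins, 11 plexins and neuropilins, 8 ephrins, 14 Eph receptors, 7 Slits and Robos, and 9 netrins, Unc5 receptors and Dcc.

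RNA was sequenced from dissected corpus striatum of C57BL/6 mice of 6 months, in 24 female and 24 male libraries. The groups were Q140 Msh3-/- (n = 8), Q140 Msh3+/- (n = 8), Q140 (n = 8), Msh3-/- (n = 8), Msh3+/- (n = 9) and wild type (WT, n = 7). Q140 mice carry, on 1 allele of their own Htt gene, a knocked-in long CAG repeat and serve as a model of Huntington's disease. Msh3 encodes a mismatch repair protein that binds small loops in DNA. No label says which mouse a library came from, so each library was taken as 1 mouse and p-values measure the spread between libraries. Some library codes share a stem, within and across groups. What the stem stands for is not given in the labels, and it was not modelled.

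Axon guidance ligands and receptors steer growing axons during development and many stay expressed in the adult brain, where they act at synapses and blood vessels. Semaphorins signal through plexins, with neuropilins as co-receptors for the secreted class 3 ligands. Membrane-bound ephrins bind Eph receptor kinases on the neighbouring cell and signal in both directions. Slits signal through Robo receptors, and the netrin Ntn1 attracts through Dcc or repels through Unc5 receptors. In the striatum, Plxnd1 and its ligand Sema3e are known for their role at synapses onto medium spiny neurons (MSNs), the projection neurons that make up most of the tissue.

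Library totals ran from 33.7 to 52.8 M counts (median 45.0 M). Msh3 reads were higher in the libraries labelled as Msh3 mutants: 125.2 ± 6.60 CPM (counts scaled by library size, ± SD) in Q140 Msh3-/-, 77.0 ± 3.14 in Q140 Msh3+/-, 32.1 ± 1.27 in Q140, 119.7 ± 7.03 in Msh3-/-, 77.4 ± 4.74 in Msh3+/- and 31.0 ± 1.46 in WT. These levels follow the number of mutant alleles in the labels, upwards, and a count over the whole gene does not show which part of Msh3 is altered. The groups are named by their labels throughout. The summed CPM of 14 MSN markers (Ppp1r1b, Pde10a, Adcy5 and others) ran from 10102 to 14778 in Q140 libraries and from 16587 to 18723 in WT libraries, with the other 4 groups between 13387 and 19862 CPM. Summed markers of choroid plexus and ependyma reached 4356 CPM in Q140 Msh3+/- F1, against a group median of 56.7, and 644 CPM in WT M2, against a group median of 51.7. Summed cortical markers reached 435.5 CPM in Msh3+/- F5, against a group median of 289.2.

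The promoter windows of 5 members are shown because these had the smallest p-values between Q140 and WT. Each runs from 250 bases before to 50 after the start annotated in RefSeq on GRCm38.p6, 5′ to 3′ on the gene's strand. Capitals mark GC boxes (GGGCGG on either strand) and, in Sema4g alone, 1 Egr motif (GCGNGGGCG on either strand), which overlaps a GC box.
Sema7a, chr9:57939862-57940161, + strand: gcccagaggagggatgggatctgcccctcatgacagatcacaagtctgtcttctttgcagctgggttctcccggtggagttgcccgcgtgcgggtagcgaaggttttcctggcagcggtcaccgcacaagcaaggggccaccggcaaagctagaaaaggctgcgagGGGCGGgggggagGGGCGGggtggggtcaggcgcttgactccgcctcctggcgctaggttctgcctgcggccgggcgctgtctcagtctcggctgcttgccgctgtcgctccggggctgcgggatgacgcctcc
Plxna3, chrX:74328816-74329115, + strand: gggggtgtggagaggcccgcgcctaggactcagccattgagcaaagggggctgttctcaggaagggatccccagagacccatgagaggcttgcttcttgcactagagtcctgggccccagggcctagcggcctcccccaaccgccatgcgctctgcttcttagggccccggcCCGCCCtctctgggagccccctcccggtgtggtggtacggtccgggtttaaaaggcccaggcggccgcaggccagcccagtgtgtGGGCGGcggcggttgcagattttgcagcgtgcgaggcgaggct
Plxnd1, chr6:115994956-115995255, - strand: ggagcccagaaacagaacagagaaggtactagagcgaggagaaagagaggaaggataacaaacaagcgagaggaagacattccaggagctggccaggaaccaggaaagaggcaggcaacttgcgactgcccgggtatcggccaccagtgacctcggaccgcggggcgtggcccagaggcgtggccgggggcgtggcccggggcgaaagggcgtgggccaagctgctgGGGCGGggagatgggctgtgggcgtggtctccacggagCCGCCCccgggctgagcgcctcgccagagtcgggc
Sema6c, chr3:95160170-95160469, + strand: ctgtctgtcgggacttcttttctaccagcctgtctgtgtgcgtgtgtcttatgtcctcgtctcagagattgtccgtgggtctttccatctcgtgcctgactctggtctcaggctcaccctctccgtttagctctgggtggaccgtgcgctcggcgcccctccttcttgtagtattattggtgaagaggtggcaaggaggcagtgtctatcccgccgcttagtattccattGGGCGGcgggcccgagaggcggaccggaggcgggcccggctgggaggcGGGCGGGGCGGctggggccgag
Sema4g, chr19:44989094-44989393, + strand: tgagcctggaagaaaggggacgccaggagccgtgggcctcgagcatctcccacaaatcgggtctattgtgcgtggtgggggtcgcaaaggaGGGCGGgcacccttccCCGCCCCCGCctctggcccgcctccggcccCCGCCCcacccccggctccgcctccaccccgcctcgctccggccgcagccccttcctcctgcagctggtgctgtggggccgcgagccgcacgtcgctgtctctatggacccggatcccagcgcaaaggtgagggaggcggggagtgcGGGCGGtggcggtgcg
These windows held 2 GC boxes in Sema7a, Plxna3 and Plxnd1, 3 in Sema6c and 4 in Sema4g. Windows were found for 59 of the 69 members, 75 windows in all. A GC box was present in 70.7% of the members' windows and in 35.7% of all 32851 windows of the same length, and an Egr motif in 18.7% against 5.55%. The members' windows had a median GC content of 64.0%, against 52.7% over all windows, and no test was made. The AP-1 motif TGANTCA occurred in 4.0% of members' windows and 7.81% of all, the E-box CACGTG in 6.67% and 7.15%, and the cyclic AMP response element TGACGTCA in 1.33% and 1.79%. The genes themselves lie on GRCm38, by GENCODE, at chr9:57940112-57962865 (Sema7a, + strand), chrX:74329066-74344689 (Plxna3, + strand), chr6:115954811-115995005 (Plxnd1, - strand), chr3:95160457-95174024 (Sema6c, + strand) and chr19:44989101-45003397 (Sema4g, + strand). For Sema6c and Sema4g the GENCODE start differs from the RefSeq start that set the window. The Sema4g window, from 44989094, lies almost wholly inside the GENCODE gene.

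Levels between genes were compared per length, as FPKM (counts relative to gene length and to the library's total). The highest member of each family over the 48 libraries was Efnb3 among the ephrins (47.7 FPKM), a transmembrane ligand. It was followed by Epha4 among the Eph receptors (37.1 FPKM), Sema7a, a membrane-anchored semaphorin (30.4 FPKM), Plxnd1, the receptor of Sema3e (26.9 FPKM), Unc5a, a repulsive netrin receptor (19.2 FPKM), and Robo2, a Slit receptor (15.5 FPKM). At the low end stood Efna4 with 0.0818 FPKM and Epha1 with 0.0567 FPKM.

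**Figure D1:**
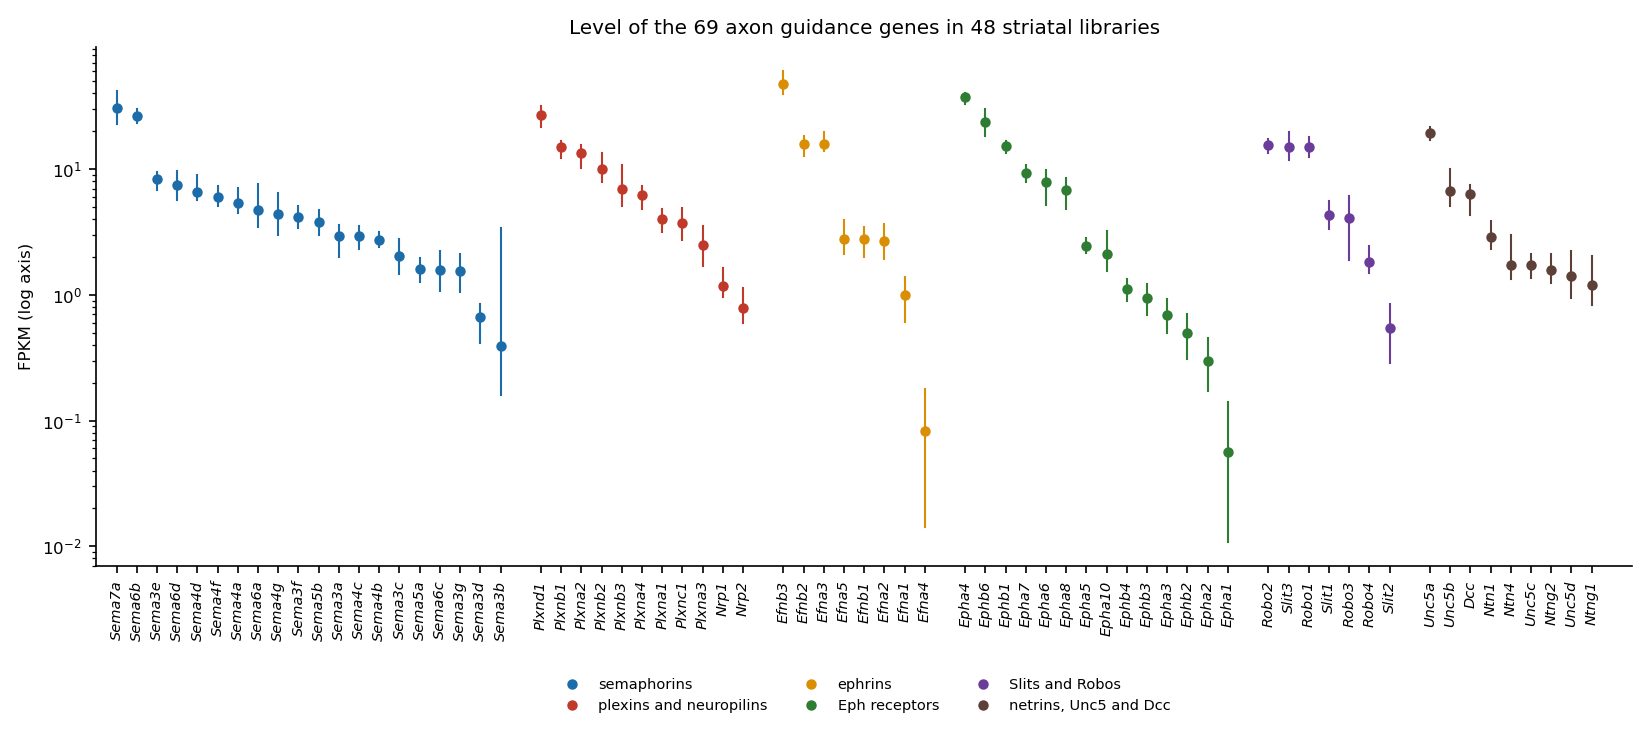
Mean FPKM over 48 libraries (dot, log axis) for each of the 69 members, grouped by family; lines run from the lowest to the highest library with counts above 0. Efnb3 (47.7 FPKM), Epha4 (37.1 FPKM) and Sema7a (30.4 FPKM) head the list, and Epha1 (0.0567 FPKM) is lowest.

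The levels of a family were also summed per library. The 20 semaphorins summed to 120.8 ± 4.11 FPKM in Q140 Msh3-/-, 122.4 ± 2.75 in Q140 Msh3+/-, 123.3 ± 3.45 in Q140, 124.5 ± 4.88 in Msh3-/-, 124.6 ± 7.20 in Msh3+/- and 127.5 ± 3.84 in WT (SD, n = 7 to 9). The 14 Eph receptors summed to 109.4 ± 3.65 FPKM in Q140 Msh3-/-, 111.6 ± 2.86 in Q140 Msh3+/-, 109.2 ± 4.60 in Q140, 105.1 ± 2.73 in Msh3-/-, 107.2 ± 2.39 in Msh3+/- and 103.7 ± 3.40 in WT. In both families the ranges of the Q140 and WT libraries overlapped. Group means of the other 4 families stayed within 88.8 and 91.8 FPKM for plexins and neuropilins, 86.6 and 90.5 for ephrins, 54.6 and 58.2 for Slits and Robos, and 41.9 and 43.6 for netrins, Unc5 receptors and Dcc. The summed levels were not tested. FPKM use the library total alone, without the TMM scaling of the tests below. That scaling choice shifted all genes between Q140 and WT, as given below. With TMM, the median log2 fold change of the Eph receptors in Q140 against WT was -0.03.

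The comparison of Q140 with WT asks which guidance genes differ in striatum carrying the expanded repeat. Of the 68 members tested, 10 rose and 10 fell in Q140, with edgeR's quasi-likelihood test at an adjusted p of 0.05 over 19975 genes. That is 29.4% of the members, where 19.9% of all genes tested were called (9.64% higher and 10.2% lower). The members' median log2 fold change was -0.03, against 0.01 over all genes tested. Sema7a, Plxnd1, Nrp1, Sema3g, Slit3 and Dcc were among those that fell, and Plxna3, Sema6c, Sema4g, Epha3 and Slit2 among those that rose. In bulk tissue, fewer cells of a type and less RNA per cell cannot be told apart. For each of the 68 members, the range of the Q140 libraries overlapped that of the WT libraries, where the ranges lay apart for 3.52% of all genes tested.

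**Figure D2:**
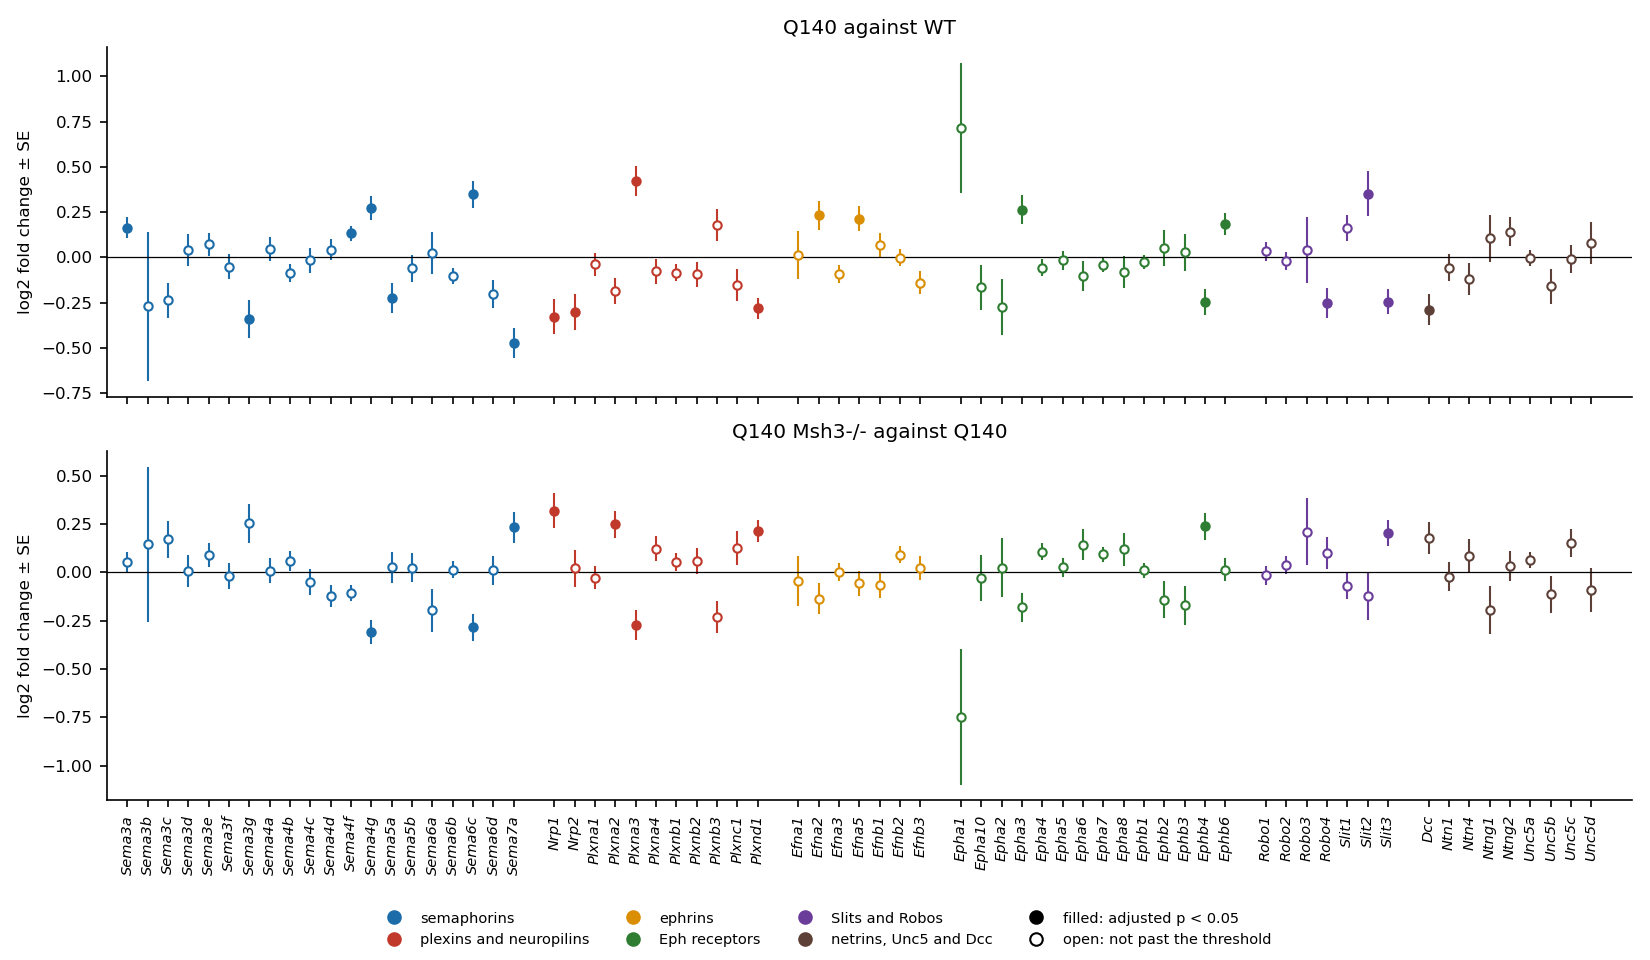
Log2 fold change ± SE of the 68 tested members by family, with Q140 against WT in the upper panel and Q140 Msh3-/- against Q140 in the lower. Filled points passed an adjusted p of 0.05. In the upper panel 10 members lie above and 10 below 0 among the filled points, with Sema7a (-0.47) lowest and Plxna3 (0.42) highest of these. The panels share the Q140 libraries.

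Among the 20 semaphorins, 4 rose (Sema6c, Sema4g, Sema4f, Sema3a), 3 fell (Sema7a, Sema3g, Sema5a) and 13 did not pass the test. Sema7a, a GPI-anchored semaphorin that binds Plxnc1 and integrins, had a lowest, median and highest level of 69.2, 81.4 and 103.1 CPM in Q140 libraries, against 103.0, 113.7 and 124.8 CPM in WT libraries. Its groups met at a single point, where Q140 M4 lay just above WT F2. Its log2 fold change was -0.47 (SE 0.082, adjusted p = 2.68e-05). Sema6c, a transmembrane class 6 semaphorin, had 8.96, 11.7 and 12.5 CPM in Q140, against 7.94, 8.81 and 10.1 CPM in WT. Q140 F3 was the lowest of its group for Sema6c, and the log2 fold change was 0.35 (SE 0.073, adjusted p = 0.000413). Sema4g, a transmembrane class 4 semaphorin, had 20.8, 25.1 and 29.0 CPM in Q140, against 17.9, 20.7 and 24.3 CPM in WT, a log2 fold change of 0.27 (SE 0.065, adjusted p = 0.00165).

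The other 4 semaphorins called in Q140 were closer to the threshold. Sema3g, a secreted ligand known from endothelial cells, averaged 6.12 ± 1.23 CPM in Q140 and 7.76 ± 0.932 CPM in WT (log2 fold change -0.34, adjusted p = 0.0138). Sema4f, another class 4 member, changed by 0.13 (SE 0.042, adjusted p = 0.0207). Sema3a, a secreted repellent that signals through Nrp1 and A plexins, averaged 42.0 ± 2.77 CPM in Q140 and 37.7 ± 2.27 CPM in WT (log2 fold change 0.16, adjusted p = 0.036). Sema5a, a transmembrane semaphorin with thrombospondin repeats, changed by -0.22 (SE 0.082, adjusted p = 0.0472). Sema6b, the next highest semaphorin after Sema7a (26.5 FPKM), had a log2 fold change of -0.10 that did not pass (adjusted p = 0.104).

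Of the 9 plexins, Plxna3 rose and Plxnd1 fell, and both neuropilins fell. Plxna3, a receptor that acts with Nrp2 for Sema3f, had a lowest, median and highest level of 21.3, 24.2 and 26.0 CPM in Q140, against 13.7, 17.0 and 21.7 CPM in WT. WT F3 alone reached the lower end of the Q140 range, and the log2 fold change was 0.42 (SE 0.080, adjusted p = 0.000108). Plxnd1 had 146.2, 165.6 and 211.5 CPM in Q140, against 191.9, 212.2 and 225.8 CPM in WT, a log2 fold change of -0.28 (SE 0.058, adjusted p = 0.000296). Nrp1, the co-receptor of Sema3a and of VEGF, averaged 9.74 ± 1.07 CPM in Q140 and 12.2 ± 0.954 CPM in WT (log2 fold change -0.33, adjusted p = 0.0103). Nrp2, the co-receptor of Sema3f, had 7.78, 8.28 and 10.6 CPM in Q140, against 8.64, 11.2 and 13.7 CPM in WT (log2 fold change -0.30, adjusted p = 0.0229). The 3 female WT libraries (8.6 to 9.7 CPM) lay inside the Q140 range of Nrp2, and the 4 male ones (11.2 to 13.7 CPM) above it. Plxna2, a receptor of class 6 semaphorins, had a log2 fold change of -0.19 that did not pass (adjusted p = 0.062).

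Among the 7 ephrins tested, the A ephrins Efna5 and Efna2, GPI-anchored ligands, rose and none fell. Efna5 had a lowest, median and highest level of 9.86, 12.4 and 14.6 CPM in Q140, against 9.62, 9.91 and 12.2 CPM in WT, and a log2 fold change of 0.21 (SE 0.069, adjusted p = 0.0224). Efna2 had 5.03, 6.24 and 7.47 CPM in Q140, against 4.50, 5.22 and 5.87 CPM in WT, and a log2 fold change of 0.23 (SE 0.081, adjusted p = 0.0368). For both genes the 2 groups overlapped over most of the WT range. Efnb3, the highest ephrin, had a log2 fold change of -0.14 that did not pass (adjusted p = 0.128).

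Among the 14 Eph receptors, Epha3 and Ephb6 rose, Ephb4 fell and 11 did not pass. Ephb4, a receptor for Efnb2 in blood vessels, had 3.98, 4.33 and 5.87 CPM in Q140, against 4.54, 5.52 and 5.92 CPM in WT, and a log2 fold change of -0.25 (SE 0.074, adjusted p = 0.0121). Epha3, a receptor for Efna5, had 3.17, 4.53 and 5.10 CPM in Q140, against 3.24, 3.84 and 4.09 CPM in WT, and a log2 fold change of 0.26 (SE 0.079, adjusted p = 0.0123). In each gene a single Q140 library stood away from the other 7: M4 was high for Ephb4 and F4 was low for Epha3. Ephb6, which lacks kinase activity and was the next highest Eph receptor by FPKM after Epha4, averaged 92.8 CPM in Q140 and 81.4 CPM in WT (log2 fold change 0.18, adjusted p = 0.028). Epha4 itself had a log2 fold change of -0.06 (95% interval -0.15 to 0.03).

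Of the 3 Slits, Slit2 rose and Slit3 fell, and of the 4 Robos, Robo4 fell. Slit3, a secreted Robo ligand, had 66.0, 82.7 and 89.5 CPM in Q140, against 82.9, 91.9 and 108.2 CPM in WT, and a log2 fold change of -0.25 (SE 0.070, adjusted p = 0.00919). Robo4, the Robo of endothelial cells, had 5.67, 7.13 and 8.02 CPM in Q140, against 6.60, 8.33 and 10.1 CPM in WT, and a log2 fold change of -0.25 (SE 0.085, adjusted p = 0.0285). Slit2, another Robo ligand, averaged 15.9 ± 2.67 CPM in Q140 and 12.5 ± 2.04 CPM in WT (log2 fold change 0.35, adjusted p = 0.041). Slit2 lies 13.1 Mb from Htt, the locus of the knock-in, on chromosome 5, and Sema3a lies 21.2 Mb from it. Sema3c (17.0 Mb), Sema3e (20.5 Mb) and Sema3d (22.2 Mb) lie at like distances from Htt and were not called. Any part of that linkage in the levels of these genes was not tested. Robo2, the highest of the Slits and Robos, had a log2 fold change of -0.02 (95% interval -0.12 to 0.07).

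Among the 9 netrins, Unc5 receptors and Dcc, Dcc alone fell and none rose. Dcc, the attractive netrin receptor, had a lowest, median and highest level of 33.2, 46.9 and 53.7 CPM in Q140, against 45.6, 55.7 and 61.6 CPM in WT. The lowest Q140 libraries lay under the whole WT range and the others inside it. Its log2 fold change was -0.29 (SE 0.085, adjusted p = 0.0116). Unc5a, the highest of these genes, had a log2 fold change of -0.01 (95% interval -0.09 to 0.08).

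The 48 members that did not pass in Q140 against WT had log2 fold changes between -0.28 (Epha2) and 0.72 (Epha1). Epha1 was the weakest member tested, at 0.295 CPM in Q140 and 0.180 CPM in WT. Its log2 fold change had a 95% interval of 0.01 to 1.42, by a normal approximation. Its unadjusted p in edgeR's test was not under 0.05. By family the median log2 fold change was -0.03 for semaphorins, -0.09 for plexins and neuropilins, 0.01 for ephrins, -0.03 for Eph receptors, 0.03 for Slits and Robos, and -0.01 for netrins, Unc5 receptors and Dcc. Some binding partners were both called, such as Efna5 (0.21) with Epha3 (0.26), and Sema3a (0.16) with Nrp1 (-0.33). Other partners of called genes were among those that did not pass. Sema3e, the ligand of Plxnd1, averaged 75.7 ± 8.28 CPM in Q140 and 71.8 ± 7.26 CPM in WT (log2 fold change 0.07, adjusted p = 0.472). Plxnc1, the receptor of Sema7a, averaged 27.2 ± 2.75 CPM in Q140 and 30.2 ± 4.10 CPM in WT (log2 fold change -0.15, adjusted p = 0.249). Sema3f, the ligand of Nrp2 and Plxna3, had a log2 fold change of -0.05 (adjusted p = 0.662), Efnb2, the ligand of Ephb4, 0.00 (95% interval -0.09 to 0.09), and Ntn1, the ligand of Dcc, -0.06 (adjusted p = 0.639). A p that misses the threshold does not show that these genes were alike in the 2 groups.

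Cell-type markers were also read in Q140 against WT, where 19.9% of all genes tested were called and 10.2% were lower. All 14 MSN markers were called lower in Q140 than in WT. Of 13 endothelial and mural markers, 4 fell and none rose, with summed levels of 362.6 to 429.9 CPM in Q140 (median 404.2) and 429.5 to 474.7 CPM in WT (median 445.6), and none of them at 0. Of 12 astrocyte markers, 5 fell, with sums of 3962 to 4827 CPM in Q140 and 5204 to 5607 CPM in WT. Of 12 microglial markers, 3 fell (25%), with sums of 413.3 to 538.8 CPM in Q140 and 506.6 to 712.4 CPM in WT. Of 10 interneuron markers, 2 fell (Nos1 and Th, 20%). Of 12 oligodendrocyte markers 1 fell, of 10 oligodendrocyte precursor markers 1 rose and 1 fell, and of 12 cortical markers 1 rose. Of 10 choroid plexus and ependyma markers 1 fell, and of 10 septal, pallidal and thalamic markers none was called. The part of these cell types in the levels of the vessel genes Sema3g, Robo4 and Ephb4, or of Plxnd1 and the other members, was not tested. Within the Q140 group, M1 and F1 had the lowest summed MSN markers (10102 and 10371 CPM) and M4 and F3 the highest (14778 and 13903 CPM). Among the 10 members that fell, Sema7a, Nrp1, Plxnd1, Slit3 and Sema3g were lowest in M1 or F1 and highest in M4 or F3. Ephb4 was lowest in M2 and highest in M4, Dcc was lowest in F4 and highest in F3, and Robo4 was lowest in F1 and highest in F4. Nrp2 was lowest in M2 and highest in M1, and Sema5a was lowest in F3 and highest in F1.

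The split between higher and lower calls depended on the scaling. With library totals in place of TMM, 14 members were called higher and 6 lower, and the median over all genes became 0.10, against 0.01 with TMM. Fitted on the Q140 and WT libraries alone, 11 members were called, 5 higher and 6 lower. Leaving out WT F3 ended the calls of Robo4 (log2 fold change -0.21, adjusted p = 0.0862), Efna5 (0.18, adjusted p = 0.0709), Sema3a (0.15, adjusted p = 0.0818) and Slit2 (0.32, adjusted p = 0.0908). Leaving out WT M2 ended those of Efna2 (0.23), Sema5a (-0.21), Sema3a (0.15), Ephb6 (0.17) and Slit2 (0.36), with adjusted p from 0.0563 to 0.082. Leaving out Q140 M2 ended those of Nrp2 (-0.27, adjusted p = 0.051), Sema5a (-0.22), Sema3a (0.16) and Slit2 (0.35). Sema7a, Plxna3, Plxnd1, Sema6c, Sema4g, Slit3, Nrp1 and Sema3g were called under each of the 14 alternatives.

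**Figure D3:**
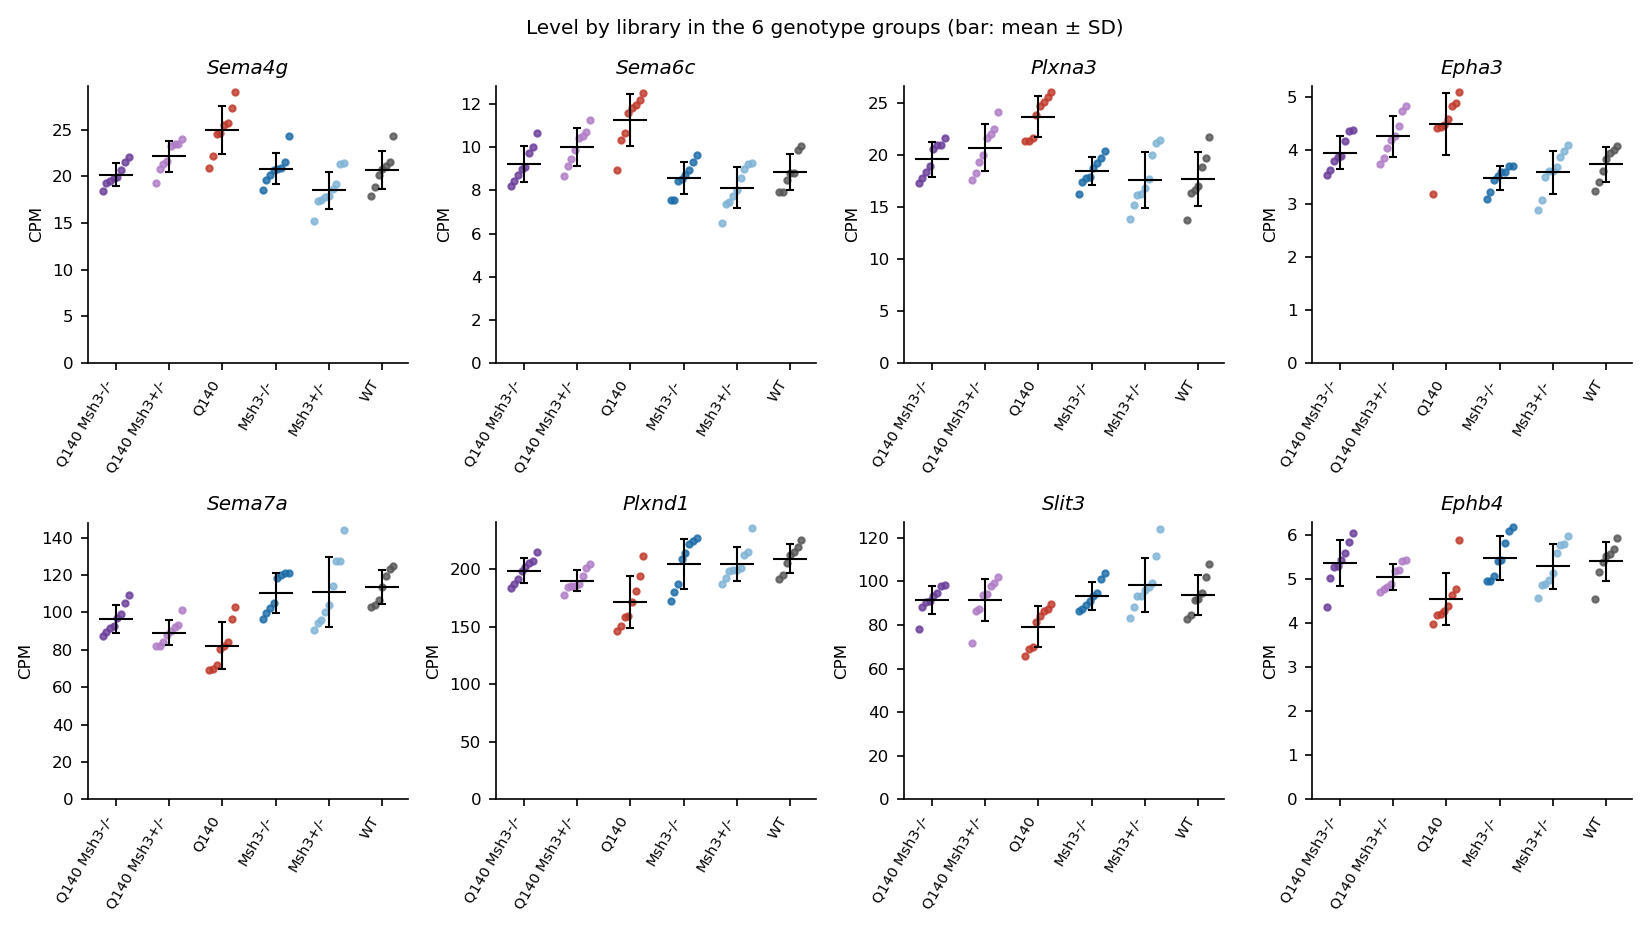
CPM in each library (points) with the group mean ± SD for Sema4g, Sema6c, Plxna3, Epha3, Sema7a, Plxnd1, Slit3 and Ephb4, from Q140 Msh3-/- on the left to WT on the right (n = 7 to 9 a group). Q140 libraries sit highest for Sema4g (20.8 to 29.0 CPM) and Plxna3 (21.3 to 26.0 CPM) and reach lowest for Sema7a (69.2 CPM).

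The comparison of the libraries labelled Q140 Msh3-/- with those labelled Q140 asks what differs when both Msh3 alleles are mutant in knock-in mice; Msh3 reads were higher in the Q140 Msh3-/- libraries. Of the 68 members, 6 rose (Plxnd1, Plxna2, Nrp1, Ephb4, Slit3, Sema7a) and 3 fell (Sema4g, Sema6c, Plxna3). That is 13.2% of the members, where 11.9% of all genes were called (6.85% higher and 5.04% lower), a share near that of all genes. No ephrin, netrin, Unc5 receptor or Dcc passed (edgeR's quasi-likelihood test, with 1 ephrin and 2 of the netrin family at an unadjusted p under 0.05). For each of the 68 members the ranges of the groups overlapped, where they lay apart for 0.946% of all genes tested.

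Sema4g had a lowest, median and highest level of 18.4, 19.9 and 22.1 CPM in Q140 Msh3-/-, against 20.8, 25.1 and 29.0 CPM in Q140, and fell with a log2 fold change of -0.31 (SE 0.063, adjusted p = 0.000538). Q140 Msh3-/- libraries overlapped the Q140 range only at its lower end. Sema6c averaged 9.24 ± 0.845 CPM in Q140 Msh3-/- and 11.3 ± 1.20 CPM in Q140 (log2 fold change -0.29, adjusted p = 0.00456). Plxna3 averaged 19.5 ± 1.66 CPM in Q140 Msh3-/- and 23.7 ± 1.97 CPM in Q140 (log2 fold change -0.27, adjusted p = 0.0146). These 3 genes encode a class 4 ligand, a class 6 ligand and an A plexin.

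Of the members that rose, the receptors Plxna2 and Plxnd1 had the highest CPM, a scale without gene length. By FPKM over all libraries Sema7a (30.4) and Plxnd1 (26.9) were highest, and Plxna2 had 13.4. Plxna2 averaged 240.8 ± 15.6 CPM in Q140 Msh3-/- and 202.3 ± 26.9 CPM in Q140 (log2 fold change 0.25, adjusted p = 0.013). Plxnd1 averaged 199.0 ± 10.7 CPM in Q140 Msh3-/- and 171.8 ± 22.7 CPM in Q140 (log2 fold change 0.21, adjusted p = 0.00763). Nrp1 averaged 12.2 ± 1.68 CPM in Q140 Msh3-/- and 9.74 ± 1.07 CPM in Q140 (log2 fold change 0.32, adjusted p = 0.0163). Ephb4, Slit3 and Sema7a followed, with log2 fold changes of 0.24 (adjusted p = 0.0213), 0.20 (adjusted p = 0.04) and 0.23 (adjusted p = 0.0474). All 14 MSN markers rose in the same comparison, where 11.9% of all genes were called. So did 3 of 12 astrocyte markers (Slc1a3, Slc1a2 and S1pr1), 1 of 13 endothelial and mural markers and 1 of 12 microglial markers. Endothelial and mural sums were 408.1 to 439.2 CPM in Q140 Msh3-/- and 362.6 to 429.9 CPM in Q140. Of 10 oligodendrocyte precursor markers 2 fell, and of 12 cortical markers 1 fell. The part of these cell types in the members' values was not tested.

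With library totals as the scaling, 3 members were called higher and 7 lower in Q140 Msh3-/- against Q140. Sema7a lost its call without Q140 M2 (log2 fold change 0.21, adjusted p = 0.0895). With the plate column of the libraries as a covariate, 6 members were called, and Ephb4 (0.22, adjusted p = 0.0711), Plxna3 (-0.21, adjusted p = 0.064), Sema7a (0.22, adjusted p = 0.127) and Slit3 (0.20, adjusted p = 0.12) did not pass. Fitted on these groups alone, Ephb4, Plxnd1, Sema7a and Slit3 did not pass, with adjusted p from 0.0505 to 0.0873. Sema4g, Sema6c, Nrp1 and Plxna2 were called under each of the 14 alternatives. This comparison and that of Q140 with WT share the Q140 libraries, and their values are given side by side only.

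Q140 Msh3+/- against Q140 gave no call among the 68 members with edgeR, where 1.98% of all genes were called; 12 members had an unadjusted p under 0.05, DESeq2 called 1 and limma 0. The smallest p belonged to Sema3b, a secreted class 3 semaphorin, with 1.25, 1.98 and 16.2 CPM (lowest, median and highest) in Q140 Msh3+/-, against 0.747, 1.47 and 1.93 CPM in Q140. Its log2 fold change of 1.35 had an adjusted p of 0.0547, and it was the member that DESeq2 called. Sema3b (mean 0.389 FPKM) fell under the FPKM minimum of the limma fit, so limma did not test it. The highest value was that of Q140 Msh3+/- F1, the library with 4356 CPM of choroid plexus and ependyma markers, of which 5 of 10 rose in this comparison. Members called in Q140 against WT did not pass here. Plxna3 averaged 20.7 ± 2.25 CPM and Sema4g 22.2 ± 1.66 CPM in Q140 Msh3+/-, against 23.7 ± 1.97 CPM and 25.0 ± 2.61 CPM in Q140.

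Q140 Msh3+/- against Msh3+/- measures the knock-in on 1 mutant Msh3 allele, in libraries separate from Q140 and WT. Of the 68 members, 6 rose (Sema6c, Sema4g, Sema3b, Slit2, Sema3a, Epha3) and 2 fell (Sema7a, Efna3). That is 11.8% of the members, where 6.45% of all genes were called (2.96% higher and 3.49% lower). Sema6c had a lowest, median and highest level of 8.65, 10.2 and 11.3 CPM in Q140 Msh3+/-, against 6.50, 8.01 and 9.29 CPM in Msh3+/-, and a log2 fold change of 0.30 (SE 0.069, adjusted p = 0.00429). The upper Q140 Msh3+/- libraries lay above the whole Msh3+/- range. Sema4g averaged 22.2 ± 1.66 CPM in Q140 Msh3+/- and 18.5 ± 1.99 CPM in Msh3+/- (log2 fold change 0.26, adjusted p = 0.0048). Sema7a averaged 89.2 ± 6.63 CPM in Q140 Msh3+/- and 111.0 ± 18.6 CPM in Msh3+/- (log2 fold change -0.31, adjusted p = 0.0092).

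Slit2 (log2 fold change 0.43, adjusted p = 0.0194), Sema3a (0.19, adjusted p = 0.0246) and Epha3 (0.25, adjusted p = 0.0299) also rose. Efna3, a GPI-anchored ephrin, fell by 0.18 on the log2 scale (adjusted p = 0.0104); an antisense gene overlaps 14.1% of its exon bases. Sema3b had a log2 fold change of 1.48 (adjusted p = 0.0116), with 6 of 10 choroid plexus and ependyma markers also called higher. Without Q140 Msh3+/- F1 and Msh3+/- F5, Sema3b stood at 0.42 (adjusted p = 0.373) and Slit2 at 0.29 (adjusted p = 0.144). With library totals as the scaling, 8 members were called higher and 1 lower, and fitted on these 2 groups alone 3 were called. Of the 14 MSN markers, 12 fell in this comparison, and their part was not tested.

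Since the Msh3+/- pair shares no library with the Q140 and WT pair, the 2 knock-in differences were set side by side. Sema7a, Sema6c, Sema4g, Sema3a, Epha3 and Slit2 were called in both, with the same direction in each. They are 30.0% of the 20 called against WT and 75.0% of the 8 called against Msh3+/-. Of the 20 members called against WT, 19 kept their sign against Msh3+/-, and Nrp2 (0.02) did not. The median size of these 20 log2 fold changes was 0.13 against Msh3+/-, taken in the direction seen against WT, where it was 0.27. The 20 were chosen for passing against WT, which favours large values there, so the 2 medians do not compare the knock-in differences. Across the 68 genes Spearman's rho was 0.67 and Pearson's r 0.29, which became 0.74 and 0.70 without Sema3b; genes are not independent replicates, and the fold changes share gene lengths, depth and the marker shifts above.

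**Figure D4:**
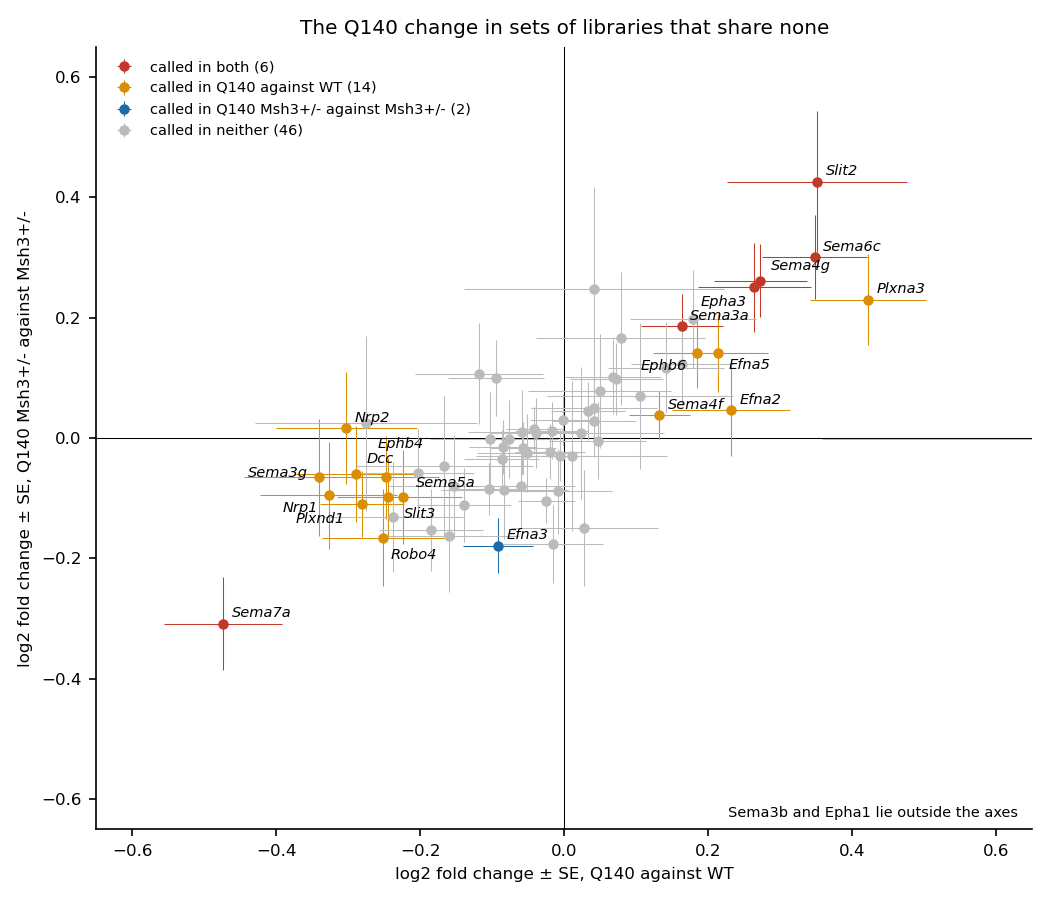
Log2 fold change ± SE of each member for Q140 against WT (x axis) and for Q140 Msh3+/- against Msh3+/- (y axis), with no library in common. The 6 members called in both lie in the lower left (Sema7a) or upper right (Sema6c, Sema4g, Sema3a, Epha3, Slit2); Sema3b and Epha1 lie outside the axes.

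Q140 Msh3-/- against Msh3-/- measures the knock-in with both Msh3 alleles mutant. It gave no call with edgeR, where 0.0751% of all genes were called; 9 members had an unadjusted p under 0.05, and DESeq2 and limma called 0. The smallest p was that of Efna5, with 10.6, 11.8 and 13.3 CPM in Q140 Msh3-/-, against 8.50, 10.9 and 11.7 CPM in Msh3-/- (log2 fold change 0.18, adjusted p = 0.6). The ranges of Efna5 overlapped. Of the 20 members called in Q140 against WT, 15 kept their sign here, with a median size of 0.04 in that direction; they were chosen for passing in Q140 against WT, where the median was 0.27. Efna5 stood at 0.18 here and 0.21 in Q140 against WT, and Ephb6 at 0.15 here and 0.18 in Q140 against WT. Sema4g (-0.05), Efna2 (-0.03), Sema4f (-0.01), Nrp1 (0.03) and Sema3g (0.01) did not.

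The interaction asks whether the knock-in difference itself depends on the Msh3 genotype. With Msh3-/- it was called for 1 of the 68 members with edgeR, Sema4g, where 2.39% of all genes were called, and 15 members had an unadjusted p under 0.05. Sema4g had 18.4, 19.9 and 22.1 CPM in Q140 Msh3-/-, against 18.6, 20.8 and 24.3 CPM in Msh3-/-, and 20.8, 25.1 and 29.0 CPM in Q140, against 17.9, 20.7 and 24.3 CPM in WT. The interaction was -0.32 on the log2 scale (95% interval -0.50 to -0.14, adjusted p = 0.0451). It did not pass without WT F3 (-0.33, adjusted p = 0.0533) or without WT M2 (-0.31, adjusted p = 0.064), nor with the plate column as a covariate (adjusted p = 0.104). DESeq2 called 1 member and limma 3, which added Plxna3 (-0.40) and Sema4f (-0.20). With Msh3+/- no member was called by edgeR, DESeq2 or limma, where edgeR called 0% of all genes. With edgeR, 4 members had an unadjusted p under 0.05, and the smallest p was that of Sema3b (1.75, adjusted p = 0.43). Sema3b was not tested by limma.

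Q140 Msh3-/- against WT sets the knock-in with both Msh3 alleles mutated against animals with neither change. No member was called by edgeR, where 0.2% of all genes were called; 10 members had an unadjusted p under 0.05, and DESeq2 and limma called 0. Sema3a had the smallest p, with 37.0, 43.1 and 49.5 CPM in Q140 Msh3-/-, against 34.1, 37.4 and 41.0 CPM in WT (log2 fold change 0.21, adjusted p = 0.123). The upper Q140 Msh3-/- libraries lay above the WT range for Sema3a. Sema7a had a log2 fold change of -0.24, Nrp2 -0.28, Slit2 0.23 and Ephb6 0.20 in this comparison, none past the threshold, while Plxna3 had 0.15, Plxnd1 -0.07, Sema6c 0.06, Sema4g -0.04 and Nrp1 -0.01.

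Without the knock-in, the Msh3 alleles gave no call. Msh3-/- against WT called no member with edgeR, where 0.03% of all genes were called, and 3 members had an unadjusted p under 0.05. Msh3+/- against WT called no member, where 0.01% of all genes were called, and 2 members had an unadjusted p under 0.05. DESeq2 and limma called 0 in each. Nrp2 had the smallest p in both, with 8.33, 8.74 and 10.9 CPM in Msh3-/-, 7.04, 9.26 and 10.3 CPM in Msh3+/- and 8.64, 11.2 and 13.7 CPM in WT. Its log2 fold changes were -0.24 (adjusted p = 1.0) in Msh3-/- and -0.30 (adjusted p = 0.988) in Msh3+/-. Nrp2 averaged 8.80 to 9.22 CPM in all 5 mutant groups, and each of these is set against the same 7 WT libraries. In WT the 3 female libraries had 8.6 to 9.7 CPM and the 4 male ones 11.2 to 13.7 CPM.

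**Figure D5:**
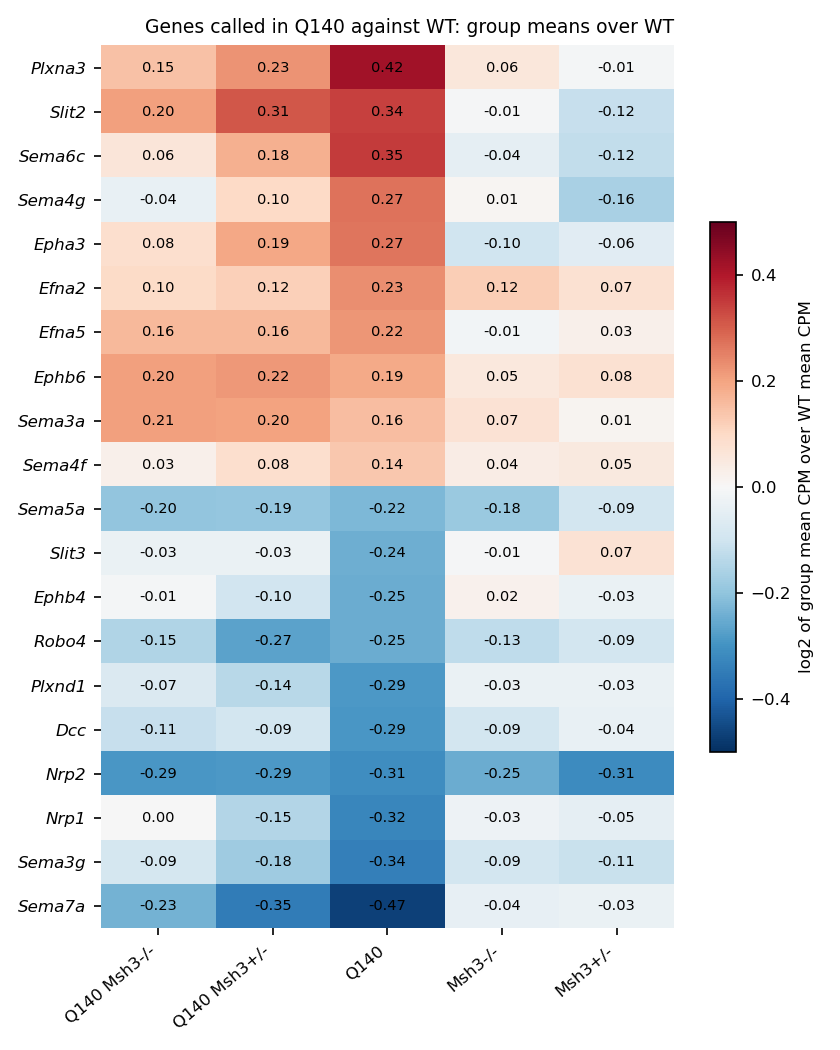
Log2 of the group mean CPM over the WT mean CPM for the 20 members called in Q140 against WT, in the other 5 groups. Nrp2 is lower than WT in each column (-0.25 to -0.31), and the Q140 column runs from -0.47 (Sema7a) to 0.42 (Plxna3); all columns share the WT libraries and the members were chosen by Q140 against WT.

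Between the sexes, 3 members were called, all lower in female than in male libraries, where 2.93% of all genes were called. Epha7, a receptor of A ephrins, had a lowest, median and highest level of 79.1, 88.5 and 98.8 CPM in 24 female libraries, against 85.0, 94.6 and 105.7 CPM in 24 male libraries. Its ranges overlapped widely, and the log2 fold change was -0.09 (SE 0.022, adjusted p = 0.0124). Sema3a averaged 38.9 ± 4.20 CPM in female and 42.5 ± 3.50 CPM in male libraries (log2 fold change -0.13, adjusted p = 0.0153). Efnb1, an X-linked transmembrane ephrin, averaged 9.07 ± 0.802 CPM in female and 9.99 ± 0.955 CPM in male libraries (log2 fold change -0.14, adjusted p = 0.0307), and lost its call without Q140 Msh3+/- F1 and Msh3+/- F5 (adjusted p = 0.0594). For each of the 3 genes the female mean was the lower in all 6 genotype groups. DESeq2 called 5 members, adding Slit2 (-0.23) and Sema5b (0.14).

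The intracellular effectors and co-receptors of guidance signalling were read from a list of 74 genes outside the families, of which 73 were tested. In Q140 against WT 14 rose and 14 fell, 38.4% of the list, where 19.9% of all genes were called. The list was chosen with earlier results of these data known, so its shares are descriptions and were not tested. Chn1, a Rac regulator that acts downstream of Epha4, fell by 0.43 on the log2 scale (adjusted p = 1.08e-09), Gsk3b, a kinase in semaphorin signalling, fell by 0.37 (adjusted p = 1.03e-08), and Ngef, an exchange factor bound by EphA receptors, fell by 0.33 (adjusted p = 1.08e-05). Dpysl3, Dpysl5 and Dpysl4, members of the collapsin response mediator family, rose by 0.38, 0.36 and 0.28, with adjusted p of 0.00109, 6.73e-05 and 1.56e-06. The family's other members on the list did not pass, with Dpysl2 at 0.08 (adjusted p = 0.382) and Crmp1 at 0.00 (adjusted p = 0.975). In Q140 Msh3-/- against Q140, 13 of the list rose and 6 fell (11.9% of all genes called), with Gsk3b at 0.34, Chn1 at 0.32, Ngef at 0.25 and Dpysl4 at -0.20. All 14 MSN markers fell in Q140 against WT and rose in Q140 Msh3-/- against Q140. Their part in the values of the list was not tested. In Q140 Msh3+/- against Q140, 4 rose and 1 fell (1.98% of all genes called), and in Q140 Msh3+/- against Msh3+/-, 5 rose and 7 fell (6.45% of all genes called). Q140 Msh3-/- against WT called 1, Dpysl5 (0.30, adjusted p = 0.0265), where 0.2% of all genes were called. The interaction with Msh3-/- called 6 of the 73, where 2.39% of all genes were called: Chn1 (0.33), Abl2 (0.31) and Gsk3b (0.31) were higher, and Grip1 (-0.27), Dpysl4 (-0.20) and Limk2 (-0.18) were lower.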

How the data were processed

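RNA of the striatum was measured by sequencing in 48 libraries, made with a stranded Illumina kit per the labels. The authors deposited whole-number counts of reads per gene and an FPKM table; per the submitters' processing notes STAR 2.7.5c, SAMtools 1.10 and HTSeq 0.12.3 were used. In the deposited tables FPKM equals the counts over a fixed length per gene and the library total. The annotation and the strand setting of the counting are not given in the sources used here; 17 members share exon bases with another gene, 13 of them with one on the opposite strand.

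The model for counts was edgeR's (4.0.16, under R 4.3.3), with filterByExpr at a minimum count of 10, TMM factors of 0.956 to 1.09 and a robust quasi-likelihood fit of group means with sex as a covariate over all 48 libraries, tested two-sided in 11 comparisons. Benjamini-Hochberg adjustment ran over 19975 genes, with a threshold of 0.05; genes not tested held 0.0383% of the counts. The biological coefficient of variation was 10.3%. CPM use TMM-scaled totals, and ± is the SD over libraries. "Rose", "fell" and "called" mark genes past the threshold. The fit was tested on simulated counts.

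The members, lists and tests were chosen with earlier results of these data known. Named are all members called in any comparison, the highest by FPKM in each family and the smallest p of each comparison; other genes named were chosen after their values were seen. Alternatives were RLE scaling, library totals, no filter or 1 CPM in 24 libraries, no sex covariate, a replicate block, the plate column of the labels, single libraries left out, only the groups compared, DESeq2 1.42.0 and limma 3.58.1 on log2(FPKM + 0.1) with 0.5 FPKM in 7 libraries. Coordinates are from GENCODE on GRCm38 by gene identifier, promoters from RefSeq.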

Additional observations from a re-analysis of the deposited data

Results flagged for a closer look

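Of 96 sets of libraries (16 members in 6 groups), 7 held a library whose gap to its nearest neighbour was large for the range of its group; chance alone gives about 1 in 20. Dcc stood at 39.47 CPM in Q140 Msh3-/- M4, where the other 7 libraries ran from 50.8 to 55.67 CPM. Dcc also stood low in Q140 Msh3+/- F4, at 34.32 CPM against 48.79 to 58.94 CPM in the rest of that group. Epha3 was at 3.173 CPM in Q140 F4, below 4.43 to 5.102 CPM in the other Q140 libraries. Q140 Msh3-/- M4, Q140 Msh3+/- F4 and Q140 F4 had the lowest summed astrocyte markers of their groups (4527, 4292 and 3962 CPM). They also had the lowest summed oligodendrocyte precursor markers of their groups. The part of these markers in the values was not tested. Ephb4 was at 5.868 CPM in Q140 M4, above 3.978 to 4.775 CPM in the others, and that library had the highest summed MSN markers of the Q140 group. Robo4 was at 9.392 CPM in Msh3-/- F1, above 6.83 to 7.988 CPM, and that library had the highest summed endothelial and mural markers of its group (487.5 CPM).

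Sema3b was flagged in 2 groups, at 16.25 CPM in Q140 Msh3+/- F1 against 1.25 to 2.46 CPM in the others, and at 3.26 CPM in WT M2 against 1.161 to 1.67 CPM. These libraries had the highest summed choroid plexus and ependyma markers of their groups, 4356 and 644 CPM. The knock-in difference of Sema4g differed between the Msh3-/- and Msh3+/+ backgrounds, with an interaction of -0.31813 on the log2 scale (SE 0.090476, adjusted p = 0.0451 with edgeR).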

How the results depend on the processing

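The 41 gene results were recomputed under 14 settings (11 for those between the sexes and 13 for Sema3b); none reversed, 17 kept their call in all of those run and 24 lost it in some. Fitting only the groups compared lowered the calls to 11 in Q140 against WT, 3 in Q140 Msh3+/- against Msh3+/- and 0 in the interaction with Msh3-/-. Q140 Msh3+/- against Q140 had 1 call with library totals, with the stricter filter and with DESeq2, each time Sema3b. The interaction with Msh3-/- had 3 calls with library totals and 3 with limma on FPKM, and 0 with no count filter or the plate column. Between the sexes DESeq2 called 5. Leaving out WT F3, WT M2 or Q140 M2, or Q140 Msh3+/- F1 with Msh3+/- F5, gave 17 to 21 calls in Q140 against WT and 0 to 1 in the interaction with Msh3-/-.

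With replicate block, labels giving sex and number, the calls were 20, 0, 10, 0, 0, 0, 7, 0, 0 and 1, in the order Q140 against WT, Q140 Msh3+/- and Q140 Msh3-/- against Q140, Q140 Msh3-/-, Msh3+/- and Msh3-/- against WT, Q140 Msh3+/- against Msh3+/-, Q140 Msh3-/- against Msh3-/-, and the interactions with Msh3+/- and Msh3-/-. The numbers do not pair the libraries: over 115 pairs of libraries with the same label the correlation of their deviations ran from -0.47 to 0.39, and 3 of 48 libraries correlated best with their own label. Efna4 (median 5 counts a library) was too shallow to test.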
